A study of Homo sapiens with 12 samples.

Results

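MYCN, the transcription factor whose amplification marks high-risk neuroblastoma, lies in band 2p24 of chromosome 2, and 7 of its neighbours were followed here: the noncoding RNAs MYCNOS and MYCNUT and the protein-coding genes DDX1, NBAS, FAM49A, TRIB2 and FAM84A. They were chosen by name and position, with MYCN itself left out, and all 7 were present among the 58735 rows of each count table. RNA was sequenced from 2 established human neuroblastoma cell lines, KELLY, which carries an amplified MYCN, and SK-N-AS, which does not. Cells were kept for 24 h with the solvent DMSO or with Erastin, which blocks cystine import through the antiporter system Xc and induces ferroptosis, at 1 µM in KELLY and 2 µM in SK-N-AS. Each of the 4 groups held 3 samples, 12 in all. Each arm of the line comparison is 1 cell line, so MYCN status and every other difference between the lines cannot be told apart. The dose differs between the lines as well.

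When MYCN is amplified, the extra copies usually carry flanking DNA, and the genes on that stretch can be gained with it. DDX1 and NBAS, the nearest protein-coding genes on the telomere side, are the neighbours best known to be co-amplified in neuroblastoma, while genes farther out are included less often. RNA levels reflect copy number together with how active each copy is, and a gene that a cell type does not use can stay silent however many copies it has. DNA copy number was not analysed here, so the levels below describe RNA.

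The positions were taken from GENCODE 44 on GRCh38, and all members lie on chromosome 2. TRIB2 (12716910 to 12742734, plus strand) is the farthest, 3.20 Mb from MYCN on the telomere side. FAM84A, now named LRATD1 (14632700 to 14650814, plus strand), lies 1.29 Mb away on the same side. NBAS (15166916 to 15561340, minus strand) and DDX1 (15591178 to 15634346, plus strand) follow at 0.38 Mb and 0.31 Mb. MYCNOS (15918350 to 15942249, minus strand) runs antisense across the start of MYCN (15940550 to 15947007, plus strand). MYCNUT (15920399 to 15936017, plus strand) ends 4.5 kb before MYCN and lies inside the span of MYCNOS. FAM49A, now named CYRIA (16549459 to 16666331, minus strand), is the member on the centromere side, 0.60 Mb away. Of the exon bases of MYCNUT, 64.0% are shared with MYCNOS on the other strand, and of those of MYCNOS 14.8% are shared with MYCNUT or MYCN. The strand setting of the read counting is not given in the sources used here, so reads from these overlapping stretches cannot be told apart.

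The promoters of the 4 protein-coding members with an entry in the RefSeq promoter table (GRCh38.p14) are shown because these genes differed between the lines by very different amounts, and the sequences give the reader the start of each gene. Each line holds the 250 bases before the start annotated in RefSeq, 5′ to 3′ on the gene's own strand, and capitals mark the GC box GGGCGG on either strand. RefSeq and GENCODE 44 starts can differ. The DDX1 window, from 15591618, lies inside the GENCODE 44 span of that gene, which starts at 15591178.
DDX1, chr2:15591618-15591867, plus strand: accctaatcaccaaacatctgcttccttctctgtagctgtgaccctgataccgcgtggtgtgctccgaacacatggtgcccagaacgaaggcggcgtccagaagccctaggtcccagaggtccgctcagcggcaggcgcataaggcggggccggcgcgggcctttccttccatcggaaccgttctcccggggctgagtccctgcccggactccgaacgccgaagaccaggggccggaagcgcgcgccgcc
NBAS, chr2:15561335-15561584, minus strand: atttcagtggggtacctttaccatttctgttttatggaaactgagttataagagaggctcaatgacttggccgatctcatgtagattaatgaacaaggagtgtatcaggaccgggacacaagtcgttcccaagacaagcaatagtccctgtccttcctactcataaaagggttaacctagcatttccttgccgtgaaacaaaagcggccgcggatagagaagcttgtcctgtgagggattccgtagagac
FAM84A, chr2:14632467-14632716, plus strand: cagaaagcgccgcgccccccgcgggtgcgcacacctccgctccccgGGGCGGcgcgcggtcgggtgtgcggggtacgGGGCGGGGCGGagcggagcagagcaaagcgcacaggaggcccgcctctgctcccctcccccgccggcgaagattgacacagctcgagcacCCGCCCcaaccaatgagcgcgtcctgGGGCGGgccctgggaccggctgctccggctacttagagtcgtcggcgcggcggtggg
TRIB2, chr2:12716686-12716935, plus strand: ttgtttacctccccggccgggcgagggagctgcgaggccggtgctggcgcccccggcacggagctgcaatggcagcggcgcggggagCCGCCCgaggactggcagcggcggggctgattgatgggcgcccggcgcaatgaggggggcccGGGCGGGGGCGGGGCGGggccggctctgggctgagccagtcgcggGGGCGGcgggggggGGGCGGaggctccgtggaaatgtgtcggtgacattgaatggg
The GC box occurred 6 times in the TRIB2 window and 5 times in the FAM84A window, with overlapping matches counted separately, and not in the windows of DDX1 and NBAS. It was present in 42.6% of all 35116 promoter windows of the same length. The E-box CACGTG, the sequence that MYC family proteins are known to prefer, was not found on either strand in any of these 4 windows, and 6.34% of all windows held it. These are matches of letters in 1 window per gene and say nothing about binding.

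Total counts lay between 24169796 and 29835670 per sample. KELLY expressed the adrenergic neuroblastoma markers at a summed level of 4605 to 7538 CPM (counts scaled to 1000000 per library) in DMSO against 1044 to 1137 in SK-N-AS, and all 10 markers were at 1 CPM or more in both lines. Summed mesenchymal markers showed the reverse order, 270 to 347 CPM in KELLY and 2739 to 2994 in SK-N-AS, as did fibroblast markers with 13.6 to 17.3 and 4452 to 5063 CPM. Of 8 blood cell markers, 5 were at 0 in SK-N-AS with DMSO, where PTPRC alone reached 547 CPM. The part of these lineage differences in the differences below was not tested. The libraries also differed in how counts followed the GC content of genes (Spearman correlation across 11825 genes of each library's deviation with GC content, a description), from -0.823 in KELLY DMSO replicate 1 to 0.856 in KELLY Erastin replicate 1, and from -0.739 to 0.76 within the SK-N-AS samples.

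The noncoding neighbours were found in KELLY alone among these samples. MYCNOS, the antisense RNA known to be produced with MYCN, had 2380, 3008 and 3015 counts in the DMSO samples of KELLY and 0 in every SK-N-AS sample. In CPM these KELLY values were 92.5, 122 and 105. Counts of 0 in all 3 SK-N-AS DMSO libraries allow 3 counts over the group, a mean level of 0.038 CPM (counting error only). Against this floor MYCNOS was at least 2801-fold higher in KELLY. The edgeR quasi-likelihood test of the difference gave an adjusted p of 3.88e-07. MYCNOS passed the low-count filter only through KELLY, so this p-value adds no support beyond the counts. MYCN itself, the reference point of the region, had 130503, 140263 and 145326 counts in KELLY and 11, 7 and 11 in SK-N-AS. MYCNOS followed it at 1.82%, 2.14% and 2.07% of the MYCN count of the same library. MYCNUT, a transcript that starts upstream of MYCN, had few counts, with 9, 4 and 3 counts in KELLY and 0 in every SK-N-AS sample. It fell short of the low-count filter and was not tested, and no fold is given.

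DDX1, an RNA helicase and a subunit of the tRNA ligase complex, was the most abundant member in CPM. Its level in DMSO was 475, 343 and 374 CPM in KELLY and 172, 190 and 224 CPM in SK-N-AS, and the groups did not overlap. The difference was 1.04 on the log2 scale (SE 0.17, adjusted p = 6.32e-04), or 2.05-fold. NBAS, a subunit of the tether that receives vesicles returning from the Golgi to the endoplasmic reticulum and a factor in nonsense-mediated mRNA decay, stood at 153, 124 and 130 CPM in KELLY and 73.5, 78.5 and 74.6 CPM in SK-N-AS. All KELLY samples were above all SK-N-AS samples, by 0.86 on the log2 scale (SE 0.14, adjusted p = 5.84e-04) or 1.81-fold. Such a separation was common: of the 17089 genes tested, 32.8% had all KELLY DMSO samples above all SK-N-AS ones and 33.5% below. The ratio of DDX1 to NBAS counts within each library was 3.1, 2.77 and 2.88 in KELLY DMSO and 2.34, 2.41 and 3.01 in SK-N-AS DMSO. These overlapped through SK-N-AS DMSO replicate 3 alone, the library with the lowest GC correlation of that line (-0.739). With Erastin the ratios were 2.55, 2.98 and 2.84 in KELLY and 2.46, 2.3 and 2.37 in SK-N-AS, every KELLY value being the higher. The part of GC content in these ratios was not tested. The 2-fold mark that DDX1 passed was not reached without KELLY DMSO replicate 1 (log2 difference 0.89), without SK-N-AS DMSO replicate 1 (0.94) or between the Erastin samples of the lines (0.85), with an adjusted p under 0.05 in each.

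FAM49A, which encodes a RAC1-binding protein that restrains the actin regulator WAVE, was present in KELLY and near 0 in SK-N-AS. It had 654, 399 and 551 counts in KELLY DMSO and 0, 0 and 2 in SK-N-AS DMSO. The ratio of the summed and scaled counts was 802 (95% exact Poisson interval 222 to 6629), and the fitted log2 difference was 9.41 (SE 0.51, adjusted p = 9.08e-07). Its size rests on the 2 counts of SK-N-AS DMSO replicate 3: without that library SK-N-AS is at 0 and the fitted value was 12.06, and without replicate 1 it was 8.87. FAM84A, whose protein carries an LRAT domain, had the same shape with 703, 548 and 593 counts in KELLY against 8, 4 and 3 in SK-N-AS, a ratio of 123 (74.4 to 220) and a log2 difference of 6.93 (SE 0.31, adjusted p = 3.49e-07). These intervals cover counting error only. FAM49A and FAM84A passed the low-count filter only through KELLY, so their p-values add no support beyond the counts. TRIB2, a pseudokinase that guides the ubiquitin ligase COP1 to C/EBP transcription factors, was well expressed in both lines. It reached 233, 187 and 196 CPM in KELLY and 132, 135 and 144 CPM in SK-N-AS, without overlap. A separation in this direction was shown by 32.8% of the genes tested. The difference was 0.60 on the log2 scale (SE 0.13, edgeR adjusted p = 0.00426) or 1.51-fold.

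**Figure D1:**
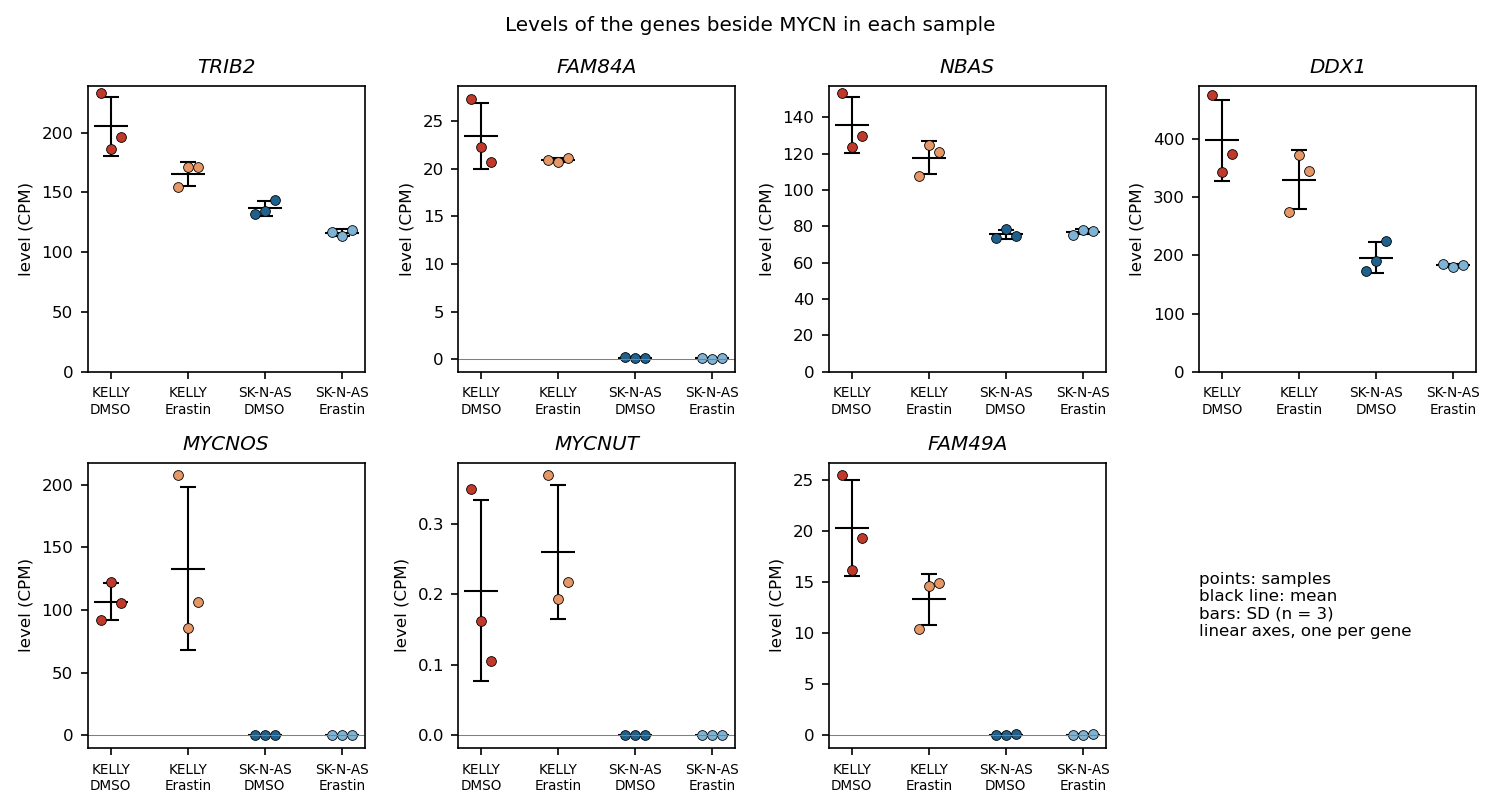
Level in CPM (vertical axis, linear, one scale per gene) of each member in the 3 samples of each group, with the mean as a line and the SD as bars. MYCNOS, MYCNUT, FAM49A and FAM84A sit at or near 0 in SK-N-AS, while TRIB2, NBAS and DDX1 are present in both lines, with KELLY DMSO means of 205, 136 and 397 CPM and SK-N-AS DMSO means of 137, 75.5 and 195 CPM.

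Levels of different genes were compared per kilobase of GENCODE 44 exons, merged over all annotated transcripts of a gene. These lengths were 2.755 kb for MYCN, 4.567 kb for TRIB2, 10.125 kb for DDX1 and 21.043 kb for NBAS. They can exceed the transcript a cell uses, so the order below depends on the annotation, which the SD does not cover. In KELLY DMSO, MYCN stood far above every neighbour at 1917 ± 130 CPM per kb (SD, n = 3). TRIB2 (45.0 ± 5.39) and DDX1 (39.2 ± 6.83) came next in the same unit, within each other's spread. In CPM DDX1 was the higher of the pair, at 397 ± 69.1 against 205 ± 24.6. MYCNOS followed at 20.6 ± 2.88 CPM per kb and NBAS at 6.44 ± 0.737. FAM49A (3.73 ± 0.861) and FAM84A (2.80 ± 0.412) again lay within each other's spread, and MYCNUT was last at 0.198 ± 0.123 CPM per kb. In SK-N-AS DMSO the order of the expressed members was the same, with TRIB2 at 29.99 ± 1.39, DDX1 at 19.3 ± 2.62 and NBAS at 3.59 ± 0.126 CPM per kb, followed by FAM84A at 0.0226 ± 0.0113 and FAM49A at 0.00460 ± 0.00796, a pair close to the detection limit.

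Of the 7 members, 6 passed the filter on low counts in the comparison of DMSO samples. All 6 were higher in KELLY at an adjusted p under 0.05, where 30.9% of the 17089 genes tested were higher, and 4 of them (MYCNOS, DDX1, FAM49A and FAM84A) also passed 2-fold, where 21.3% of the genes tested did so (20.7% were at least 2-fold lower). MYCNOS, FAM49A and FAM84A could pass the filter only through KELLY, where they are high. For DDX1, NBAS and TRIB2, which were well above the filter in both lines, 21.5%, 24.7% and 30.7% of all genes tested had a difference at least as high, so their differences were of a common size for this pair of lines. For FAM84A and FAM49A these shares were 3.14% and 1.08%. They rest on 15 and 2 summed counts in SK-N-AS DMSO, and a gene near 0 in 1 line ranks high by its counts alone. These 2 shares therefore add no support beyond the counts. With each library's GC trend removed, DDX1 was at 1.04, NBAS at 0.85 and TRIB2 at 0.61 on the log2 scale. Here the trend was removed against the mean of the library's own group. A GC difference between the lines is left in by this step, so these values do not test it.

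Other genes of the region were then placed by their distance from MYCN. Within 1 Mb, 4 other genes were placed and 1 was tested, the noncoding RNA GACAT3, with 61, 56 and 49 counts in KELLY DMSO and 0 in every SK-N-AS sample (at least 55.3-fold higher, against 3 counts over the SK-N-AS DMSO group). Between 1 and 5 Mb, 21 genes were tested. Their median log2 difference was 0.83 (quartiles -0.0044 and 1.22), 15 were higher in KELLY, and 9 passed the test at 2-fold upward and 1 downward. With only genes of at least 10 counts in every sample the median was 0.40, below the 0.54 that the genes at 5 to 15 Mb then had, so the order of these windows depends on the filter. The 9 were led by GREB1 (5.56), VSNL1 (2.28), GDF7 (2.28), LINC01376 (1.85) and E2F6 (1.58), and the gene lower in KELLY was MATN3 (-1.48). GDF7 and LINC01376 had low levels, 0.94 and 0.69 CPM in KELLY and 0.19 CPM each in SK-N-AS. Both passed the low-count filter through KELLY, so their calls add no support beyond the counts. DDX1, NBAS and TRIB2 thus lay within the quartiles of genes several megabases away. Between 5 and 15 Mb, the median of 119 genes was 0.57, with 35 higher and 11 lower at 2-fold. Beyond 15 Mb on chromosome 2, the median of 850 genes was -0.38, with 120 higher and 259 lower. On the other chromosomes the median was 0.0032 over 13974 genes, with 2883 higher and 2911 lower at 2-fold.

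**Figure D2:**
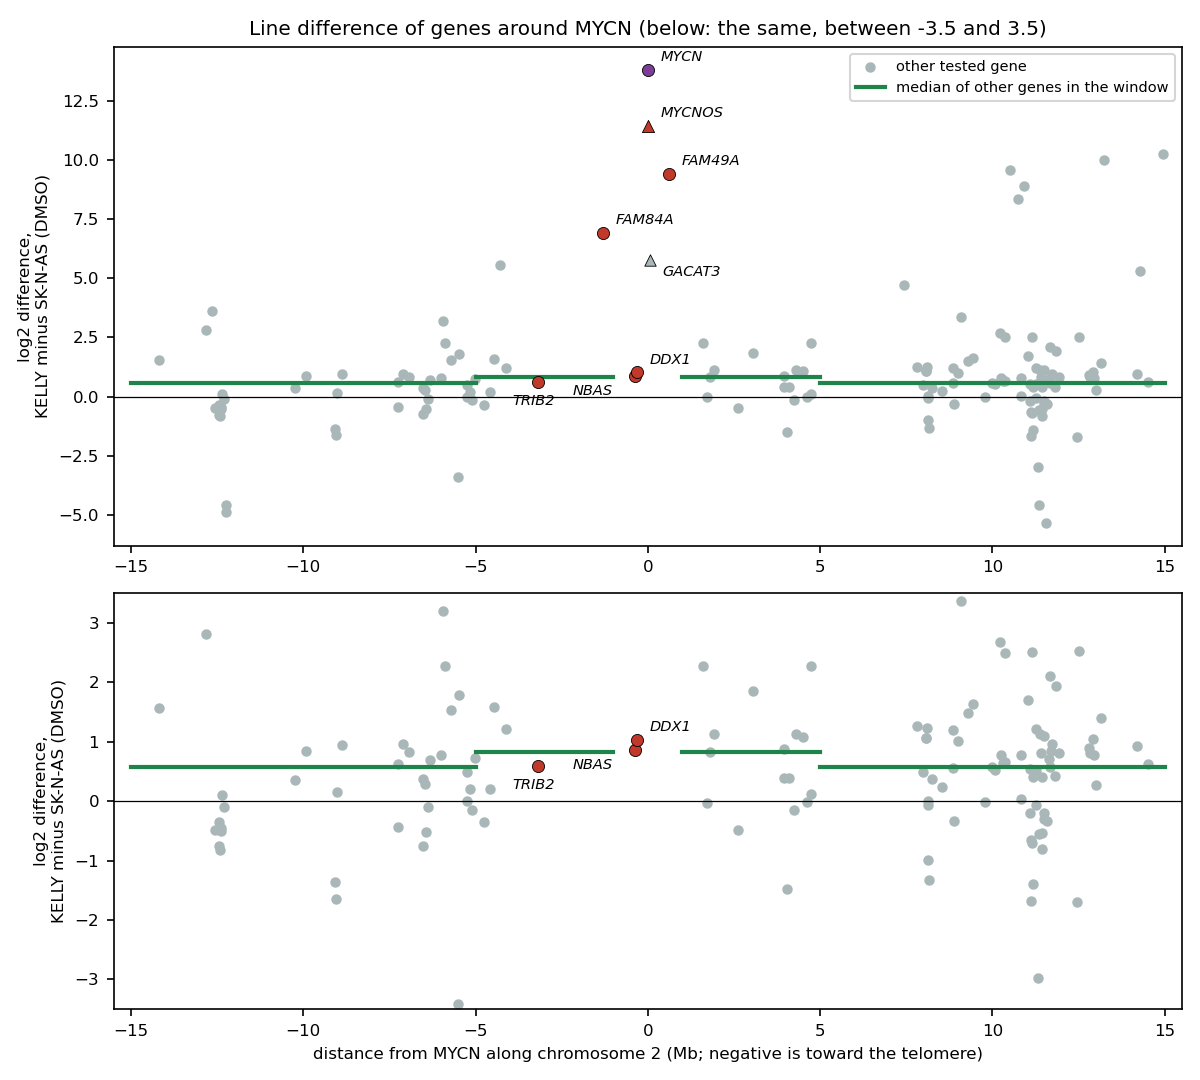
Log2 difference between KELLY and SK-N-AS in DMSO (vertical axis) by distance from MYCN along chromosome 2 in Mb (horizontal axis), with members in red, MYCN in purple, other tested genes in grey and the medians of the other genes in the 1 to 5 Mb and 5 to 15 Mb windows in green and the lower panel showing the small differences enlarged. Triangles are lower bounds for MYCNOS and GACAT3, which are at 0 in SK-N-AS, and MYT1L, also at 0 there, is not drawn. DDX1 (1.04), NBAS (0.86) and TRIB2 (0.60) sit near the green medians of 0.83 and 0.57, and FAM84A, FAM49A, MYCNOS and MYCN far above them.

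The median difference was also followed along chromosome 2 in bins of 10 Mb, leaving out the members and MYCN, a description chosen after the windows had been seen. The bin from 10 to 20 Mb, which holds MYCN, had a median log2 difference of 0.83 over 23 genes, with 17 higher in KELLY (0.67 over 18 genes with at least 10 counts in every sample, an alternative chosen after seeing the data). It ranked 20 of the 261 bins of the genome with at least 20 genes, whose quartiles were -0.27 and 0.28. The following bins on the short arm stood at 0.61 (20 to 30 Mb, 82 genes), 0.50 (30 to 40 Mb, 47 genes) and 0.28 (40 to 50 Mb, 39 genes), and the bin nearest the telomere at 0.16 (35 genes). From 80 to 120 Mb, 4 bins lay between -1.46 and -0.96. Medians above the upper genome quartile thus ran from 10 to 40 Mb, a stretch that holds all members, and bins nearer the middle of the chromosome lay below the lower quartile.

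**Figure D3:**
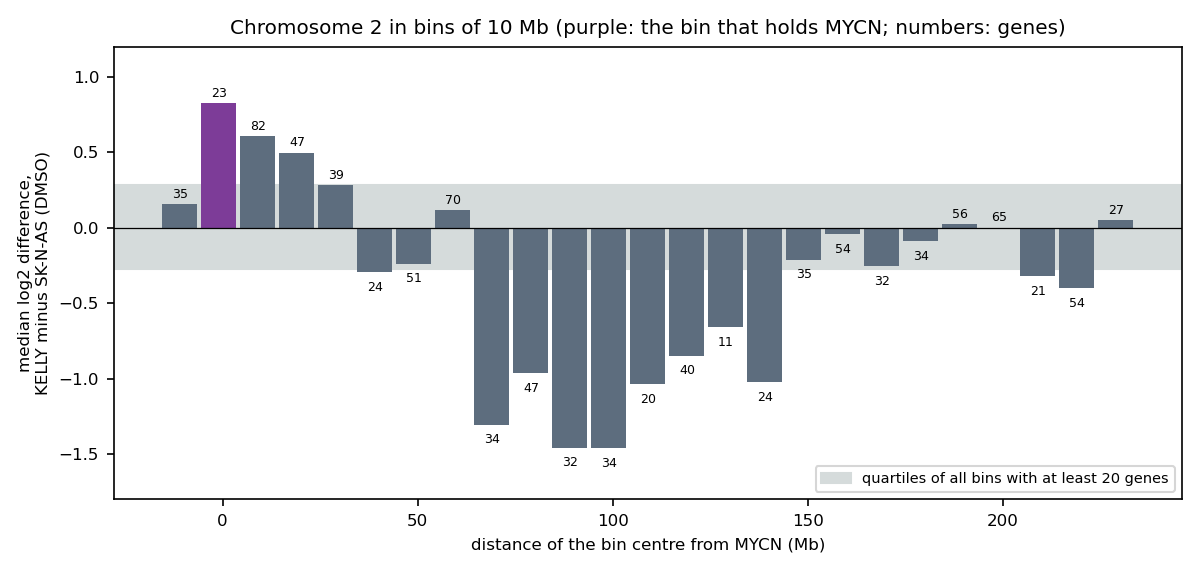
Median log2 difference between KELLY and SK-N-AS in DMSO (vertical axis) of the genes in each 10 Mb bin of chromosome 2, by the distance of the bin centre from MYCN in Mb (horizontal axis), with the number of genes on each bar and members and MYCN left out. The bin that holds MYCN (purple) is the highest of the chromosome at 0.83 (0.67 with at least 10 counts in every sample), and grey shading marks the quartiles of all genome bins with at least 20 genes.

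A list of 24 other genes of the short arm, among them ALK, names some of the genes behind these medians. All 24 belong to the windows from 1 to 15 Mb above, so the list adds no further support to them. In DMSO its median log2 difference was 0.98, against 0.02 over all genes tested. Of the 24, 12 were at least 2-fold higher in KELLY and 0 lower, where 21.3% of all genes tested were higher and 20.7% lower. At an adjusted p under 0.05 in edgeR's quasi-likelihood test with no fold limit, 17 were higher and 1 lower. Over all 17089 genes tested, 5288 were higher and 5185 lower by that rule. ALK, the receptor kinase mutated or amplified in some neuroblastomas, led with 82.1 ± 15.8 CPM in KELLY and 0.0756 ± 0.0647 CPM in SK-N-AS (SD, n = 3), a log2 difference of 10.00. GREB1 (5.56), KLF11 (2.28), VSNL1 (2.28) and ODC1 (1.79), the last the first enzyme of polyamine synthesis and a known MYC target, followed. SMC6, 1.72 Mb from MYCN and on its centromere side, was level at 84.2 ± 16.3 CPM in KELLY and 86.6 ± 15.7 CPM in SK-N-AS, a log2 difference of -0.03 (SE 0.19, adjusted p = 0.916). High levels in KELLY were therefore not shared by every gene near MYCN.

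Partners of the members, grouped by function, differed between the lines in both directions. Over all genes tested, 21.3% were at least 2-fold higher and 20.7% lower in KELLY. With no fold limit 5288 of 17089 (30.9%) were higher and 5185 lower. Of the 6 genes in the tRNA ligase list of DDX1, RTCB, the catalytic subunit, was higher in KELLY by 0.78 on the log2 scale (SE 0.12, adjusted p = 5.60e-04), short of 2-fold, and C2orf49, the subunit known as ashwin, was lower (-1.24, SE 0.19, adjusted p = 4.66e-04). The median of the list was -0.22. Among 7 genes of the Golgi-to-ER tether and its SNARE proteins, ZW10, a direct partner of NBAS, was higher (1.28), while RINT1, the other partner in the tether, and the SNAREs USE1 and STX18 were lower (-1.53, -2.12 and -1.39). With no fold limit 2 of the 7 were higher and 4 lower. Of 11 nonsense-mediated decay genes, 0 passed the test at 2-fold (edgeR), 5 were higher and 1 lower at an adjusted p under 0.05 with no fold limit, and the list's median was 0.22.

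Among 11 genes around FAM49A, which include RAC1, its paralog FAM49B and the subunits of the WAVE complex, 2 were higher and 1 lower in KELLY at 2-fold. CYFIP2, a RAC1-binding subunit, stood at 89.5 ± 5.65 CPM in KELLY and 7.18 ± 0.0940 in SK-N-AS, a log2 difference of 3.65, and the small subunit BRK1 was higher by 1.23. WASF3, a WAVE protein, was lower by 4.93 on the log2 scale with 1.07 ± 0.292 and 33.1 ± 1.38 CPM. In the list around TRIB2 (5 genes), CEBPA was higher in KELLY at a low level of 0.715 ± 0.231 CPM against 0.0245 ± 0.0425, TRIB3 was lower by 0.87 on the log2 scale (adjusted p = 0.00193) and COP1 did not pass the test (0.30, SE 0.17, adjusted p = 0.149).

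Relatives of MYCN, FAM84A, FAM49A and TRIB2 also lie in 1 region, around MYC in band 8q24, with the noncoding RNA PVT1 next to MYC. MYC was at 0.721 ± 0.122 CPM in KELLY and 141 ± 8.15 in SK-N-AS (log2 difference -7.59), the opposite order to MYCN. FAM84B, the paralog of FAM84A, was likewise lower in KELLY at 1.81 ± 0.465 against 49.2 ± 3.91 CPM (log2 difference -4.75). The other 3 genes of this list did not pass the test, with log2 differences of 0.30 for FAM49B (SE 0.18), -0.21 for TRIB1 (SE 0.15) and 0.13 for PVT1 (SE 0.18). So FAM84A and FAM84B were each high in the line with the higher level of the MYC family gene beside it, whereas FAM49B was present in both lines at 137 and 113 CPM.

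**Figure D4:**
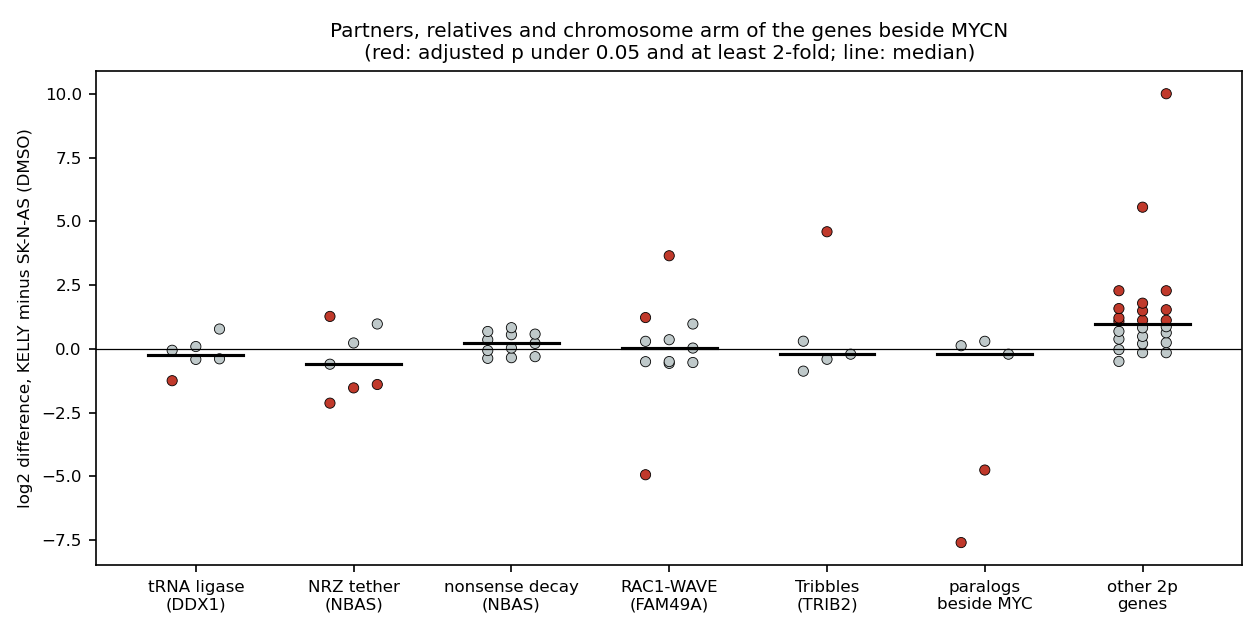
Log2 difference between KELLY and SK-N-AS in DMSO (vertical axis) of the genes in each list, with genes at an adjusted p under 0.05 and at least 2-fold in red and the median of each list as a black line. The other short-arm genes have a median of 0.98 with 12 of 24 in red above 0, against 21.3% of all genes tested. The partner lists have medians between -0.60 and 0.22.

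Erastin was then compared with DMSO in each line, using the same DMSO samples as above. In KELLY 6 members were tested and 0 passed an adjusted p of 0.05 (edgeR), where 0.00615% of the 16258 genes tested did so, and DESeq2 called 0 of them as well. An unadjusted p under 0.05 was reached by 1 member. At the threshold of the study's methods, an unadjusted p of at most 0.05 with at least 1.5-fold, 1 member passed, FAM49A, which was lower with Erastin, as were 0.744% of genes at this threshold. FAM49A counts were 654, 399 and 551 in DMSO and 254, 377 and 411 with Erastin, or 25.4, 16.2 and 19.3 CPM against 10.4, 14.6 and 14.9 CPM. Every Erastin sample was below every DMSO sample, a pattern that 4.34% of genes showed in this direction. The log2 change was -0.61 (SE 0.23, unadjusted p = 0.0326, adjusted p = 0.770), and it was -0.44 (SE 0.12, adjusted p = 0.502) with the GC trend of each library removed. FAM49A passed the study's threshold in 11 of 17 alternatives, and missed it with the GC trend removed, with the replicate block and when DMSO replicate 1 (-0.41), Erastin replicate 1 (-0.46) or DMSO replicate 3 (-0.65) was left out.

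TRIB2 showed the same separation in KELLY at a smaller size, from 233, 187 and 196 CPM in DMSO to 154, 171 and 172 CPM with Erastin (log2 change -0.31, SE 0.15, adjusted p = 0.770). With the GC trend removed the TRIB2 change was larger, -0.41 (SE 0.15, edgeR adjusted p = 0.670). The remaining members overlapped between the groups. DDX1 went from 475, 343 and 374 CPM to 274, 372 and 344 CPM (log2 change -0.27, SE 0.18), NBAS from 153, 124 and 130 to 107, 125 and 121 CPM (-0.20, SE 0.15) and FAM84A from 27.3, 22.3 and 20.7 to 21.0, 20.7 and 21.2 CPM (-0.16, SE 0.17), each with an adjusted p of 0.770. DDX1 was highest in DMSO replicate 1 and lowest in Erastin replicate 1, the libraries with the most extreme GC trends. With each library's trend removed against the mean of its line, the DDX1 change was 0.04 (SE 0.11, edgeR adjusted p = 0.912). That step would also remove a response to Erastin that follows GC content. The GC content of the longest DDX1 transcript, 36.2%, is the lowest of the members. The part of GC content in the DDX1 change was not tested.

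The replicates of MYCNOS differed among themselves. Its level with Erastin was 208, 85.4 and 107 CPM, against 92.5, 122 and 105 CPM in DMSO, so that 1 Erastin sample stood above all others and another below all others. The log2 change was 0.33 (SE 0.32, edgeR adjusted p = 0.770), and 0.15 (SE 0.22, adjusted p = 0.833) with the GC trend removed. Without Erastin replicate 1, the library with the highest GC correlation (0.856), it was -0.15. The part of GC content in the MYCNOS level of that library was not tested. In that library MYCNOS amounted to 3.17% of the MYCN count, against 1.89% and 2.09% in the other Erastin libraries. MYCN had 159802, 116651 and 141174 counts with Erastin, a log2 change of 0.03 (SE 0.16, adjusted p = 0.934), or -0.24 (adjusted p = 0.698) with the GC trend removed. In SK-N-AS it went from 11, 7 and 11 to 2, 3 and 1 counts, too few to be tested there. The difference in response between the lines was -2.29 (SE 0.44, edgeR unadjusted p = 2.11e-04, adjusted p = 0.481). MYCN entered that test through its KELLY counts alone, so this unadjusted p adds no support beyond the few SK-N-AS counts. MYCNUT stayed at 9, 5 and 6 counts and was not tested.

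In SK-N-AS, where MYCNOS and MYCNUT were at 0 in all 6 samples and FAM49A had 0, 0 and 2 counts in both groups, 3 members could be tested. None passed an adjusted p of 0.05 in edgeR or DESeq2, where 0.659% of the 16095 genes tested passed in edgeR, and 1 had an unadjusted p under 0.05. That member was TRIB2, at 132, 135 and 144 CPM in DMSO and 117, 113 and 119 CPM with Erastin. Every Erastin sample was below every DMSO sample, as for 7.81% of genes, and the log2 change was -0.23 (SE 0.08, unadjusted p = 0.0155, adjusted p = 0.380). The adjusted p was 0.0375 with the GC trend removed, at the same log2 change. DDX1 (-0.08, SE 0.10, adjusted p = 0.887) and NBAS (0.04, SE 0.08, adjusted p = 0.950) overlapped between the groups, NBAS with means of 75.5 ± 2.65 and 77.0 ± 1.46 CPM. FAM84A had 8, 4 and 3 counts in DMSO and 3, 2 and 5 with Erastin, too few to be tested.

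Of the 4 tested genes of the list around TRIB2, 2 rose in SK-N-AS. TRIB3, a Tribbles gene known to be induced by the stress factor ATF4, rose from 38.6 ± 4.30 to 80.0 ± 15.1 CPM (log2 change 1.06, SE 0.13, adjusted p = 0.00179), and CEBPB rose from 37.5 ± 3.79 to 67.9 ± 12.2 CPM (0.87, SE 0.13, adjusted p = 0.00583). TRIB1 (-0.05, adjusted p = 0.955) and COP1 (0.06, adjusted p = 0.910) did not pass the test. In KELLY TRIB3 and CEBPB changed by 0.60 (SE 0.18) and 1.17 (SE 0.37), with an adjusted p of 0.770 each, and the difference between the lines did not pass the test for TRIB3 (0.45, SE 0.24, adjusted p = 0.811) or CEBPB (-0.31, SE 0.43, adjusted p = 0.835). In SK-N-AS every Erastin sample was thus above the DMSO samples for TRIB3 (as for 6.98% of genes) and below them for TRIB2 (7.81%). Of the 62 other genes of the partner, paralog and short-arm lists, 0 passed an adjusted p of 0.05 in either line in edgeR. An unadjusted p under 0.05 was reached by 0 in KELLY and 4 in SK-N-AS, where DESeq2 called 2 (the short-arm genes RHOB, log2 change 0.46 and adjusted p = 0.0023, and SDC1, -0.56 and adjusted p = 8.76e-04, against 0.0621 and 0.0551 in edgeR). The short-arm list had median log2 changes of -0.12 in KELLY, with 7 genes up and 17 down, and -0.06 in SK-N-AS, with 6 up and 17 down, against 0.01 and -0.01 over all genes tested.

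**Figure D5:**
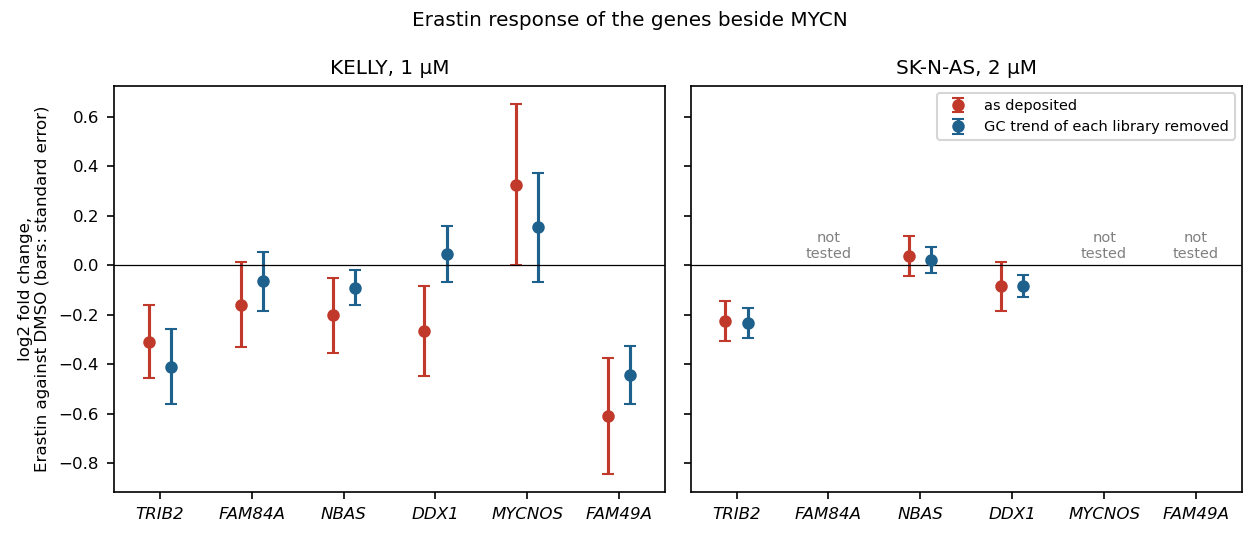
Log2 fold change of Erastin against DMSO (vertical axis, bars are the standard error) for each member in KELLY and SK-N-AS, as deposited (red) and with each library's GC trend removed (blue). FAM49A is the lowest in KELLY at -0.61 as deposited and -0.44 without the trend, DDX1 moves from -0.27 to 0.04, and TRIB2 is below 0 in both lines.

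The difference between the lines in the Erastin response was tested over all 12 samples, with the SK-N-AS change minus the KELLY change. None of the members passed (edgeR adjusted p of 0.811 or more, no member at an unadjusted p under 0.05 and none by DESeq2, where 0.00548% of 18239 genes passed). The differences were 0.17 for DDX1 (SE 0.21), 0.23 for NBAS (SE 0.15) and 0.07 for TRIB2 (SE 0.15). FAM84A, with too few counts to be tested within SK-N-AS, entered through KELLY, and its value of -0.46 (SE 0.50) rests on those few counts. For FAM49A the near absence of counts in SK-N-AS left an SE of 1.71, and MYCNOS, at 0 in that line, gave no usable estimate. The line comparison in the Erastin samples had the same direction for all members, with log2 differences of 0.85 for DDX1, 0.62 for NBAS and 0.51 for TRIB2, and with summed counts of 1042 against 2 for FAM49A, 1631 against 10 for FAM84A and 10209 against 0 for MYCNOS.

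Finally, the 3 genes whose log2 CPM (with 0.1 CPM added) over the 12 samples, centred on their own means, were closest to a member were listed as a description for 5 members. The closest to DDX1 were SLC16A1, THAP12 and NET1 (root mean square differences of 0.06, 0.07 and 0.07 on the log2 scale, against a spread of 0.50 for DDX1 itself). For NBAS they were SUPT7L, which also lies on chromosome 2, HSPA9 and LRCH3 (0.05, 0.05 and 0.06 against 0.38), and for TRIB2 NCAPG2, DNAJA1 and HEATR3 (0.06, 0.06 and 0.07 against 0.32). Among the members near 0 in SK-N-AS, FAM84A was closest to SLITRK1, GABRA5 and SPOCK1 (0.28, 0.29 and 0.30 against 3.26) and MYCNOS to DPP6, SEZ6L and RPH3A (0.25, 0.35 and 0.38 against 5.09). With line as the main source of spread many genes share such a profile.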

How the data were processed

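RNA-seq was analysed for 12 samples of the cell lines KELLY and SK-N-AS, 3 per group, called biological triplicates in the deposited design text, and p-values measure the spread between these samples. The authors trimmed paired-end reads of 150 bases, aligned them to GRCh38 and tallied reads by gene in HTSeq 2.0.3 on GENCODE 29, and they deposited raw counts of all biotypes without normalization. The aligner and the strand setting are not given in the sources used here. Groups came from the sample labels. The members and gene lists were chosen with earlier results of these data known.

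Counts were fitted in R 4.3.3 with edgeR 4.0.16 (filterByExpr defaults, TMM scaling, quasi-likelihood test) for KELLY against SK-N-AS in DMSO, for Erastin against DMSO in each line and for their interaction. P-values were adjusted by the Benjamini-Hochberg method over all genes tested. Calls needed an adjusted p under 0.05, and between the lines also a 2-fold difference. CPM were scaled by TMM. A fold against a group at 0 was computed against 3 counts over the group. Positions, exon lengths and GC content came from GENCODE 44, matched by symbol (36194 rows) or by an older symbol (850), with 1568 rows repeating a name. All members and MYCN were named, and from each list or window up to 5 called genes with the largest difference. Partners and markers that a sentence needed (such as RTCB, COP1, SMC6, FAM49B and PTPRC) were added after their values were seen. The genes most like FAM49A are not reported here.

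Results were recomputed with DESeq2 1.42.0, limma-voom (limma 3.58.1), RLE scaling, scaling to library size, no filter, a minimum of 10 counts in every sample, coding genes, the replicate number as a block, each library's GC trend removed (loess, span 0.5), both, all 12 samples in 1 fit, the Erastin samples, and each sample left out. On simulated data with 200 genes changed by 2 on the log2 scale, 196 were recovered between the lines, 187 in KELLY, 199 in SK-N-AS and 166 in the interaction, with 10, 16, 9 and 6 false calls.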

Additional observations from a re-analysis of the deposited data

How the results depend on the processing

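For the members, 362 of 364 alternative values stayed on the same side of an adjusted p of 0.05 with no called value changing direction, and 2 passed it anew: TRIB2 with Erastin in SK-N-AS (log2 change -0.23), at an adjusted p of 0.0375 with the GC trend removed and 0.00195 with the replicate block as well. The 2-fold limit of the line comparison, which this count leaves out, was missed by DDX1 in 3 of 18 alternatives (0.89, 0.94 and 0.85). The replicate block alone changed no member's call. Deviations of same-numbered DMSO and Erastin samples had correlations of -0.487, -0.484 and -0.036 in KELLY. In SK-N-AS these were -0.008, 0.058 and 0.122. With 3 samples per group and GC trends in the libraries, these values cannot tell whether the numbers pair the samples. Small changes that did not pass the test had another sign in 3 alternatives in KELLY, 1 in SK-N-AS and 5 in the interaction.

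Counts over all genes depended on the settings far more, and the cause was not tested. Between the lines 7189 genes were called, and 4348 with at least 10 counts in every sample, where fewer genes are tested. In KELLY the count was 1 (430 genes at an unadjusted p under 0.05), with DESeq2 31, without a filter 19, with the replicate block 0, with the GC trend removed 32, with both 5, in 1 fit of all samples 17, at the study's threshold 330, and 0 to 2 with a sample left out (0 without any one DMSO replicate or Erastin replicate 3, 2 without Erastin replicate 1 or 2). In SK-N-AS it was 106, with DESeq2 223, without a filter 265, with the replicate block 308, with the GC trend removed 955, with both 1610, in 1 fit of all samples 46, at the study's threshold 429, and 53 to 855 with a sample left out (53 without DMSO replicate 2, 855 without DMSO replicate 3, 67 and 70 without Erastin replicates 2 and 3). In the interaction it was 1, with DESeq2 12, without a filter 8, with the GC trend removed 14, with the block as well 10, and 1 to 3 with a sample left out (3 without KELLY DMSO replicate 2). The fitted median within 1 Mb (GACAT3 alone, at 0 in SK-N-AS) moved from 8.81 to 8.41 in the Erastin samples and had no value with at least 10 counts in every sample. The median between 1 and 5 Mb moved from 0.83 to 0.40 under that count minimum and to 0.65 in the Erastin samples, and that of the 10 Mb bin around MYCN from 0.83 to 0.67 under the count minimum.

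With 3 samples per group, changes of the size seen here for most members could not be told from the spread between samples. Counts of 0 throughout a group do not exclude up to 3 counts over it.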
